A study of Homo sapiens with 12 samples.

Results

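The piRNA-annotated features of extracellular vesicles (EV) are entries of a small RNA count table that carry the name of a Piwi-interacting RNA (piRNA) and that were detected in vesicle libraries. They were chosen by measured values: a feature was a member when every library of 1 or more EV groups gave it 5 or more CPM (counts per 1000000 counts) of the piRNA table. This rule took 37 of the 293 features of that table, out of 49135 features in the count tables of 5 RNA classes. Of the 293 features, 267 had a count in some library and 26 had none, and 230 features with a count were no members.

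Small RNA was sequenced from 12 EV preparations, 3 from independent cultures for each of 4 stages on the way from pluripotent cells to cardiomyocytes. All of them came from the established human induced pluripotent stem cell (hiPSC) line iPS(IMR90)-4, so each group stands for 1 line and 1 genetic background. The hiPSC-EV were collected at day 0 from pluripotent cells after 24 h in expansion medium. The CPC-EV were collected at day 6 from cardiac progenitor cells after 72 h in differentiation medium that held the Wnt inhibitor IWR1. Before this came Wnt activation with CHIR99021, given together with Activin A, and then a first medium with IWR1. The CMi-EV were collected at day 15 from aggregates of immature cardiomyocytes after 48 h in maintenance medium. The CMm-EV were collected at day 35 from mature cardiomyocyte aggregates after 48 h in a glucose-free maturation medium with galactose and fatty acids. Stage and medium changed together in every step, and conditioning time changed with them in all but the last. From CPC-EV to CMi-EV the culture also changed, from monolayers to aggregates in agitated suspension. The parts of these factors in the differences between groups cannot be told apart.

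As background, piRNAs are small RNAs bound by proteins of the PIWI clade of Argonautes, and they are best known from animal germ cells, where they guide the silencing of transposons. They are cut from long single-stranded precursors, trimmed and methylated at the 3′ end by dedicated enzymes. Databases of piRNA names also hold sequences that overlap fragments of abundant noncoding RNAs such as tRNA and Y RNA, so a name in such a table is an annotation of a read and not a measurement of PIWI binding.

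The deposited count tables do not hold the sequences of the members, and none is printed. Whether any member is a fragment of another annotated RNA was therefore not tested.

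The library totals behind the deposited RPM (reads per 1000000 reads of the library) ranged from 1514392 in hiPSC-EV 1 to 9594408 in hiPSC-EV 3. The counts on the piRNA table were 87711, 343859 and 798700 in the hiPSC-EV libraries and 480201, 692296 and 497814 in the CPC-EV libraries. They were 217085, 276794 and 108162 in the CMi-EV libraries and 38530, 143315 and 119859 in the CMm-EV libraries. The threshold of 5 CPM therefore stood for less than a whole count in some libraries: it equals 0.193 counts in CMm-EV 1 and 3.99 counts in hiPSC-EV 3, and a feature with 1 count has 25.95 CPM in the former and 1.25 CPM in the latter. A feature without a count may lie anywhere below 3 counts, which is 77.9 CPM in CMm-EV 1 and 3.76 CPM in hiPSC-EV 3. Intervals and limits of this kind cover counting error only, since reads amplified by PCR are not independent molecules.

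piRNA-annotated features made up the largest share of the small RNA in CPC-EV and the smallest in CMm-EV. As a percentage of all assigned counts, that is those on miRNA, tRNA, piRNA, circular RNA and gencode transcripts (5 classes), the piRNA table held 6.95, 8.40 and 9.13 in hiPSC-EV and 14.8, 11.9 and 16.2 in CPC-EV. It held 7.10, 10.2 and 5.91 in CMi-EV and 3.01, 2.03 and 2.11 in CMm-EV. Every CPC-EV library lay above every library of the other groups, every CMm-EV library lay below them, and hiPSC-EV and CMi-EV overlapped. In the order of the stages, from hiPSC-EV to CMm-EV, the means were 8.16% ± 1.11, 14.3% ± 2.20, 7.75% ± 2.24 and 2.38% ± 0.543 (SD, n = 3 each). The widest 95% Wilson interval of a single library was ± 0.0444 percentage points, far narrower than the spread between libraries of a group.

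An exact permutation test of the F statistic over all 15400 divisions of the 12 libraries into 4 groups of 3 gave F = 24.99 and p = 0.000584, one-sided by construction, where 6.49e-05 is the smallest p possible. Pairs of groups were not tested on this share, since 3 against 3 libraries cannot go below an exact two-sided p of 0.1. The order of the groups was the same as a share of the library totals, with means of 7.23%, 11.9%, 6.79% and 2.10%. A share also depends on the other classes: the miRNA table held on average 60.4%, 53.3%, 69.2% and 85.1% of the counts in the same order. In bulk RNA of vesicles, fewer cells of a type that releases these RNAs and less of the RNA per cell cannot be told apart.

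**Figure D1:**
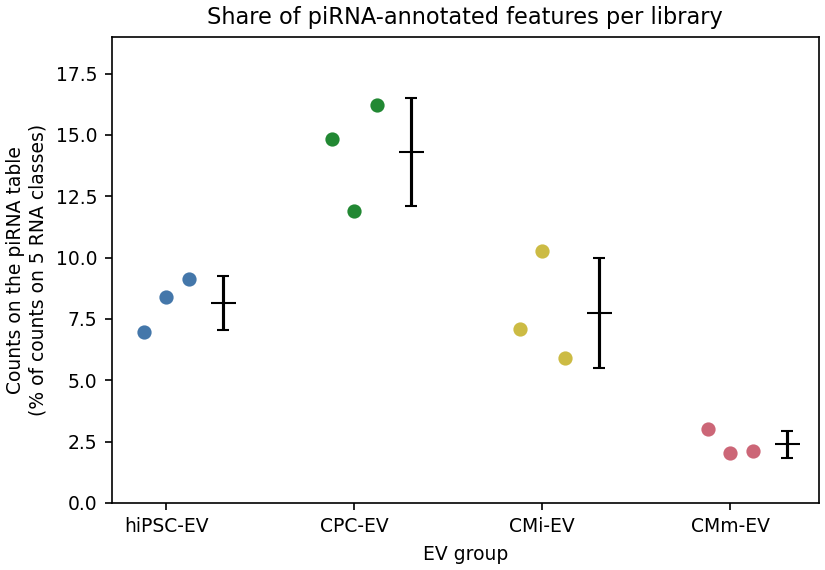
Counts on the piRNA table as a percentage of the counts on 5 RNA classes. Points are libraries of the 4 EV groups, and bars show the mean and SD of 3 libraries. The CPC-EV libraries lie between 11.9% and 16.2%, above all others, and the CMm-EV libraries between 2.03% and 3.01%, below all others.

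Nearly all of these counts fell on a pair of features, piR-33043 (URS0000386F92_9606) and the marker named by the rule, piR-33044 (URS00002154C2_9606). The more abundant, piR-33043, held 73.1, 70.6 and 77.1% of the piRNA table in hiPSC-EV, 59.1, 58.5 and 57.4% in CPC-EV, 65.3, 69.0 and 62.1% in CMi-EV, and 76.4, 75.4 and 75.6% in CMm-EV. The other, piR-33044, held 25.1, 28.02 and 22.2% in hiPSC-EV, 39.8, 40.3 and 41.5% in CPC-EV, 33.4, 29.8 and 36.4% in CMi-EV, and 21.2, 22.8 and 23.03% in CMm-EV. In each library piR-33043 was the most abundant feature and piR-33044 came next. Together they held from 97.6% of the table in CMm-EV 1 to 99.3% in hiPSC-EV 3, and the whole membership held from 99.4% to 99.97%.

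The balance within this pair moved with the group. The mean share of piR-33043 was, from hiPSC-EV to CMm-EV, 73.6% ± 3.27, 58.3% ± 0.877, 65.4% ± 3.45 and 75.8% ± 0.529 (SD, n = 3 each), and 68.3% over all 12 libraries. Of the counts on both features, piR-33044 took 25.5, 28.4 and 22.4% in hiPSC-EV, 40.3, 40.8 and 42.0% in CPC-EV, 33.8, 30.2 and 37.0% in CMi-EV, and 21.7, 23.2 and 23.4% in CMm-EV. On this ratio, which no scaling of the libraries can change, CPC-EV stood above CMi-EV and CMi-EV above the groups at both ends of the course, without overlap, while hiPSC-EV and CMm-EV overlapped. The ratio was looked at after its values were seen and was not tested.

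**Figure D2:**
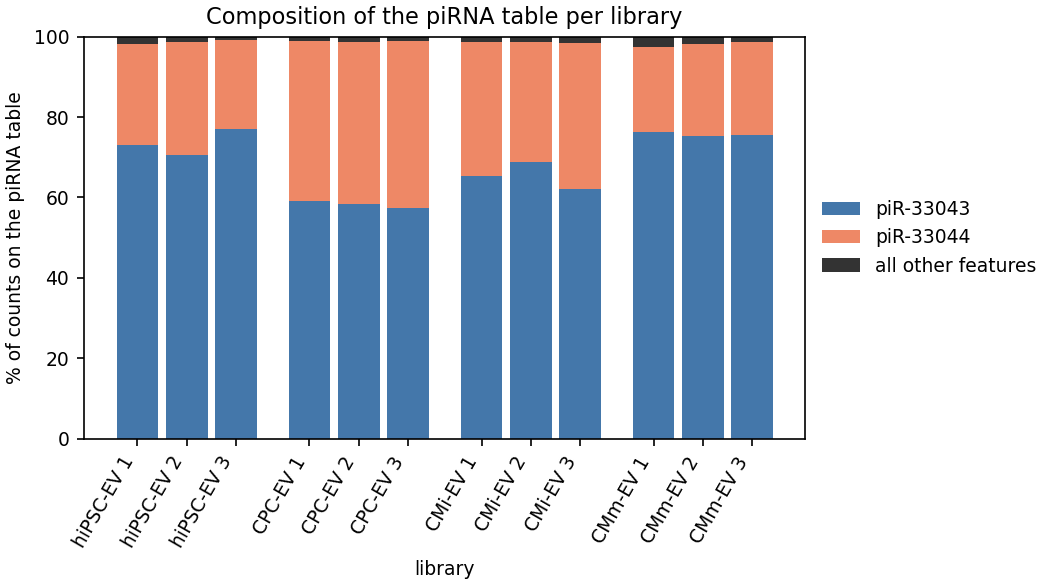
Composition of the piRNA table in each of the 12 libraries, in % of its counts. Stacked bars show piR-33043, piR-33044 and all other features together. The pair fills 97.6% to 99.3% of every bar, and the piR-33044 segment is tallest in the CPC-EV libraries, at 39.8% to 41.5%.

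Beyond this pair little was left, between 0.748% of the table in hiPSC-EV 3 and 2.44% in CMm-EV 1, or 942 to 8737 counts per library. The next most abundant feature was piR-42844 in 10 libraries and piR-31115 in hiPSC-EV 2 and hiPSC-EV 3. It took between 13.4% and 49.4% of the remaining counts. From 13 features in CMi-EV 3 to 46 in hiPSC-EV 3 were needed to reach 90% of the remainder, which was thus spread more evenly than the table as a whole. The number of features with a count ran from 30 in CMm-EV 1 to 157 in hiPSC-EV 3, the libraries with the fewest and the most counts on the piRNA table. With the counts on the piRNA table alone brought to the total of CMm-EV 1, the expected numbers were 31.4, 71.5 and 61.6 in hiPSC-EV, 43.8, 51.9 and 34.8 in CPC-EV, 30.3, 38.2 and 33.9 in CMi-EV, and 30, 26.5 and 37.2 in CMm-EV. At this equal total hiPSC-EV 2 and hiPSC-EV 3 held the most features, and hiPSC-EV 1 lay within the range of the cardiomyocyte groups. Library totals and the counts beyond the pair were not matched.

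The rule was met through hiPSC-EV by 27 members, through CPC-EV by 20, through CMi-EV by 17 and through CMm-EV by 14. A single group admitted 17 members, of which 12 entered through hiPSC-EV alone, 2 through CPC-EV, 2 through CMi-EV and 1 through CMm-EV. Members admitted by 2 groups numbered 8 and by 3 groups 3, and 9 members met the rule in all 4 groups. Only 1 member had no count at all in hiPSC-EV, compared with 10 in CMm-EV, 7 in CMi-EV and 2 in CPC-EV. A member that entered through 1 group had to be high there, so these numbers describe the choice and test nothing.

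Many members rested on few counts. Over all 12 libraries together, 10 members had fewer than 100 counts, 5 of them fewer than 50, and the lowest total was 24. Just inside the threshold stood piR-31686 and piR-33064, each with 1, 6 and 5 counts in the hiPSC-EV libraries, or 11.4, 17.4 and 6.26 CPM. Just outside stood piR-43770, with 2, 3 and 3 counts or 22.8, 8.72 and 3.76 CPM in hiPSC-EV, and piR-34358, with 2, 1 and 14 counts or 9.21, 3.61 and 129 CPM in CMi-EV. Expected counts were identical in every library for piR-31686 and piR-33064, and likewise for piR-33526 and piR-33527, so these 4 members amount to 2 independent measurements. What the members of such a set share in sequence cannot be read from the files.

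**Figure D3:**
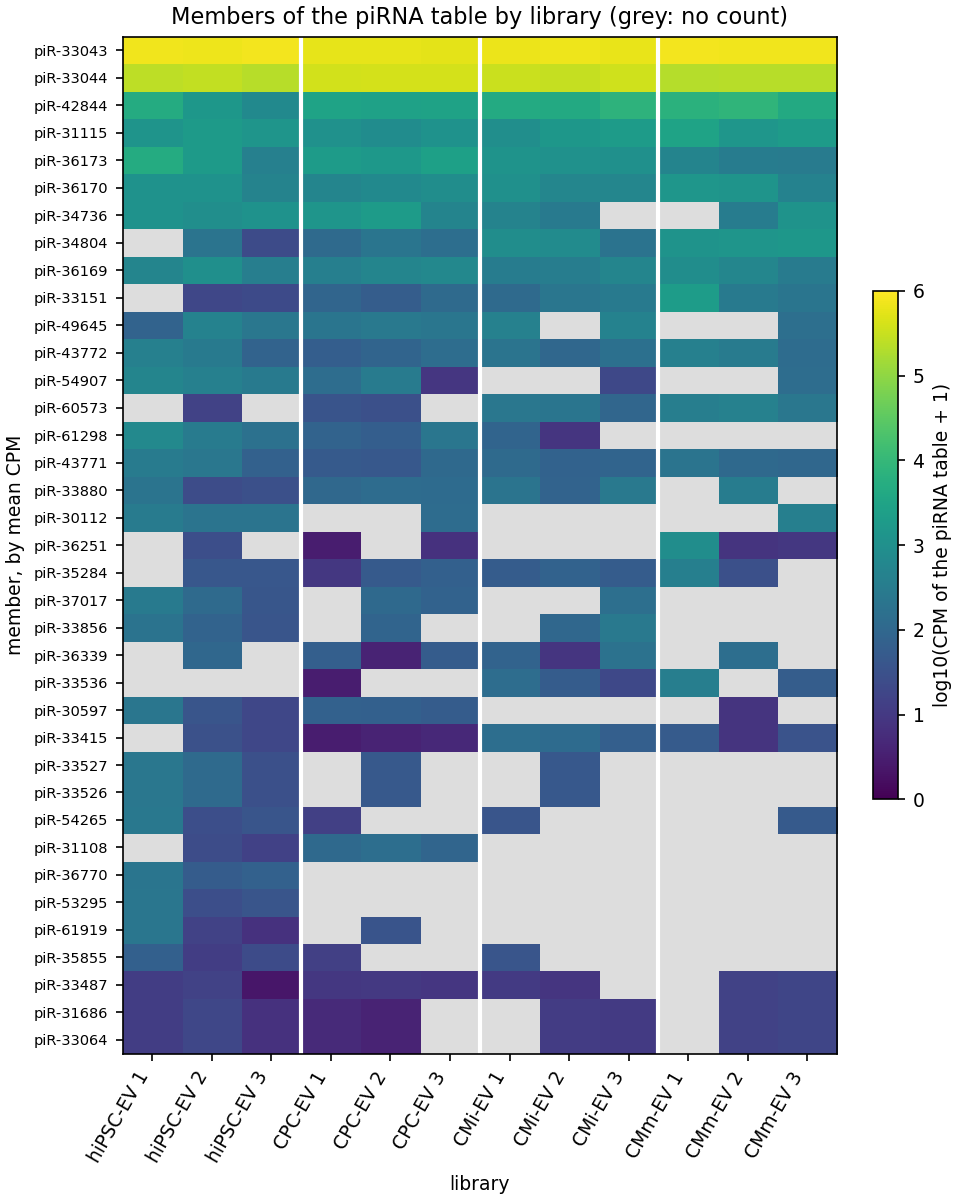
Level of each of the 37 members (ordered by mean CPM) in each of the 12 libraries, as log10 of CPM of the piRNA table plus 1, with grey for no count. The 2 uppermost members fill the top of the scale in every library, and 9 of the 37 members have a count in every library.

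After the dominant pair, the members with the highest mean CPM were piR-42844, piR-31115, piR-36173, piR-36170, piR-34736, piR-34804, piR-36169 and piR-33151, for none of which a function is stated here. The most abundant of them, piR-42844, had 4902, 1489 and 700 CPM in hiPSC-EV, 2980, 2747 and 2921 in CPC-EV, 4689, 4498 and 7470 in CMi-EV, and 6774, 8513 and 4330 in CMm-EV. In CPM of the piRNA table it was lowest in hiPSC-EV 2 and hiPSC-EV 3, and higher in all cardiomyocyte libraries than in all CPC-EV libraries. In RPM the order of CPC-EV and CMm-EV turned, with 368, 269 and 394 in CPC-EV against 162, 161 and 87.0 in CMm-EV. A different course was that of piR-36173, with 4857, 1855 and 407 CPM in hiPSC-EV, 1912, 1572 and 2515 in CPC-EV, 1230, 1109 and 1035 in CMi-EV, and 519, 321 and 317 in CMm-EV. Its CMm-EV libraries lay below all CMi-EV libraries and these below all CPC-EV libraries, while hiPSC-EV spanned nearly the whole range.

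For piR-34736 the counts were 99, 320 and 890 in hiPSC-EV, 638, 1389 and 248 in CPC-EV, 105, 76 and 0 in CMi-EV, and 0, 48 and 145 in CMm-EV. It had a count in all hiPSC-EV and CPC-EV libraries and was missing from 1 library of each cardiomyocyte group. A different order held in CPM for piR-34804, with 0, 206 and 22.5 CPM in hiPSC-EV, 117, 211 and 149 in CPC-EV, 889, 780 and 194 in CMi-EV, and 1194, 1347 and 1460 in CMm-EV. On this scale its CMm-EV libraries were above those of all other groups, and CMi-EV 3 fell within the range of CPC-EV. In RPM the CMm-EV libraries, at 28.6, 25.5 and 29.3, lay between CMi-EV 3 at 9.72 and the other CMi-EV libraries at 56.2 and 70.6. The highest value of piR-33151, 2102 CPM, belonged to CMm-EV 1 alone and rested on 81 counts. For piR-31115, with 846 to 1149 CPM in CPC-EV, every hiPSC-EV and CMm-EV library lay above that range, whereas in RPM every CMm-EV library, at 26.7 to 72.8, lay below the CPC-EV libraries, at 82.9 to 155. The last named members, piR-36170 and piR-36169, had a count in every library, and in CPM each of their groups overlapped all others. In RPM piR-36170 was lower in all CMi-EV and CMm-EV libraries than in all CPC-EV libraries, and so was piR-36169.

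Some members with few counts had most or all of them in the earliest groups. The counts of piR-61298 were 59, 106 and 141 in hiPSC-EV, 38, 42 and 113 in CPC-EV, 18, 2 and 0 in CMi-EV, and 0 in all CMm-EV libraries. For piR-36770 they were 19, 19 and 58 in hiPSC-EV, and for piR-53295 they were 20, 9 and 30, with no count in any other group for either. By contrast, piR-31108 had 54, 101 and 45 counts in CPC-EV against 0, 8 and 11 in hiPSC-EV and none in either cardiomyocyte group. The rule was met through hiPSC-EV alone by piR-36770 and piR-53295, through CPC-EV alone by piR-31108, and through these groups only by piR-61298. Their place in these groups therefore follows from the choice and is no finding. Every cardiomyocyte library also had fewer counts on the piRNA table than every CPC-EV library, hiPSC-EV 2 and hiPSC-EV 3, which limits the comparison further.

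The group in which a member stood highest depended on the scale. By mean CPM of the piRNA table, 17 members were highest in hiPSC-EV and 12 in CMm-EV, against 3 in CPC-EV and 5 in CMi-EV. By mean CPM of the 5 classes together, 15 were highest in hiPSC-EV and 2 in CMm-EV, against 15 in CPC-EV and 5 in CMi-EV. The scales differ by the share of the piRNA table itself, which was largest in CPC-EV and smallest in CMm-EV.

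Against the whole library, both dominant members had their highest mean in CPC-EV. In RPM, piR-33043 had 42310, 53485 and 64148 in hiPSC-EV, 72893, 57254 and 77439 in CPC-EV, 41267, 62422 and 31058 in CMi-EV, and 18310, 14258 and 15190 in CMm-EV. The CMm-EV libraries were below all others, and the other groups overlapped. In the same unit piR-33044 had 14515, 21230 and 18475 in hiPSC-EV, 49138, 39416 and 56083 in CPC-EV, 21099, 27019 and 18232 in CMi-EV, and 5080, 4319 and 4628 in CMm-EV. Here CPC-EV was above and CMm-EV below every other library, and hiPSC-EV and CMi-EV overlapped. The means of piR-33044 were 18074 ± 3375, 48212 ± 8372, 22117 ± 4481 and 4676 ± 383 RPM from hiPSC-EV to CMm-EV (SD, n = 3 each).

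**Figure D4:**
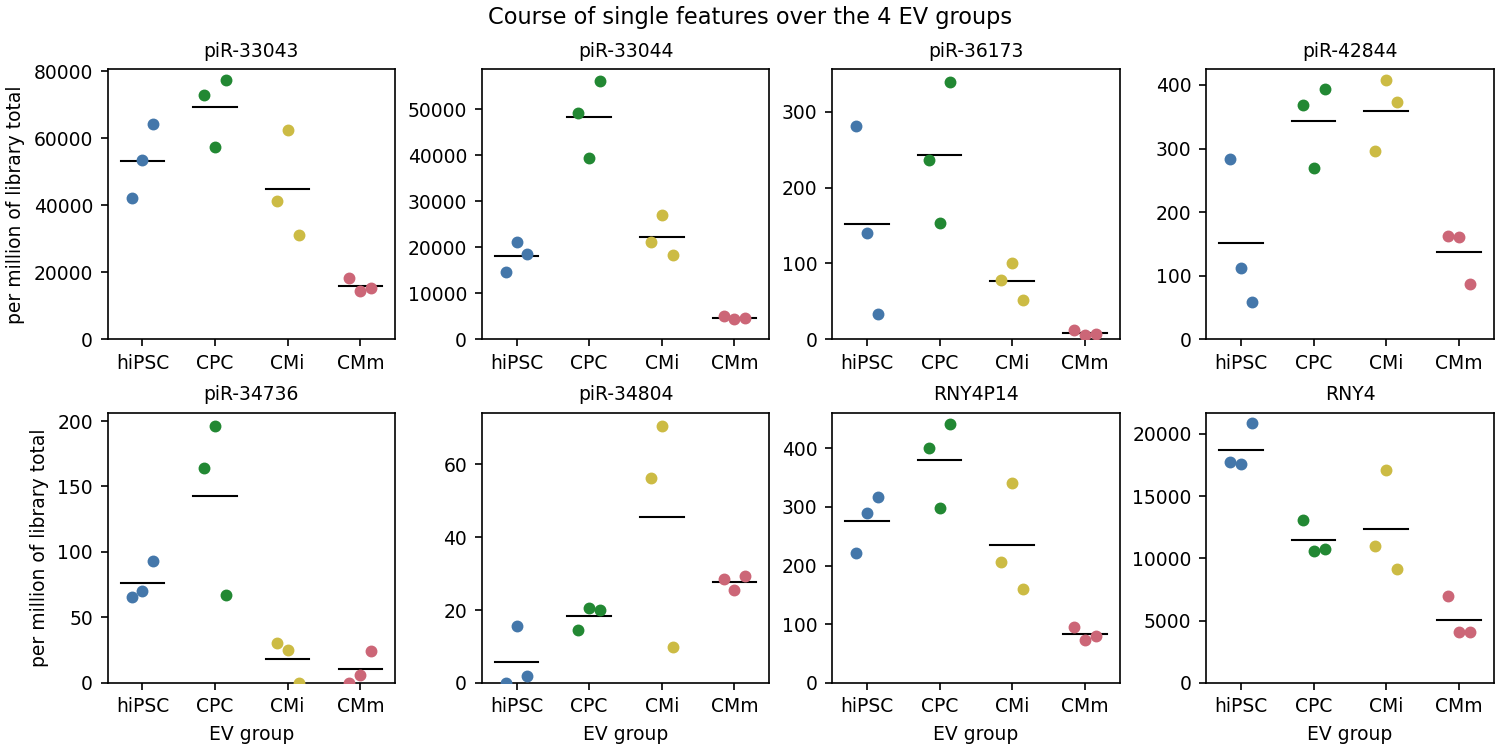
Course of 6 members and 2 Y RNA features over the 4 EV groups, in RPM. Points are libraries and lines are means of 3. piR-33043, piR-33044 and RNY4P14 have their highest mean in CPC-EV and their lowest in CMm-EV, while RNY4 has its highest mean in hiPSC-EV.

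Which members differed over the 4 groups was tested on the whole piRNA table with edgeR's quasi-likelihood F-test and Benjamini-Hochberg adjustment, after a filter on mean CPM that does not look at the groups. With TMM (trimmed mean of M-values) factors, which measure each feature against the bulk of this table, 8 of 121 tested features (6.61%) passed at a false discovery rate of 0.05, and 7 of them were members, all 37 of which had passed the filter. These were piR-61298, piR-33044, piR-36173, piR-54907, piR-30112, piR-36770 and piR-33043. Of these, piR-30112 and piR-36770 had met the rule through hiPSC-EV alone, and piR-61298 and piR-54907 through hiPSC-EV and CPC-EV only. The calls of these 4 are therefore no finding about the members. The adjusted p of edgeR's quasi-likelihood test was 0.00632 for piR-61298 and for piR-33044, 0.00972 for piR-36173 and 0.0454 for piR-33043. Outside the membership piR-34533 passed, with 44 counts in CMm-EV 1 and 5 in hiPSC-EV 3.

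On the scale of the counts of 5 RNA classes, where the fall of the whole table in CMm-EV is kept, 9 of 121 features (7.44%) passed, again 7 of them members. The adjusted p of edgeR's quasi-likelihood F-test, by Benjamini-Hochberg, was then 5.47e-29 for piR-33044 and 5.94e-16 for piR-33043. Over 21 alternative settings of the test the adjusted p of piR-33044 ran from 4.12e-29 to 0.830 and it passed in 10, and over 20 settings that of piR-33043 ran from 5.94e-16 to 0.998 and it passed in 3. The rule took the more abundant features of the table, and nothing is read from the number of members among the calls.

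The count of 8 rested on single libraries. Without hiPSC-EV 1, CPC-EV 1 or CPC-EV 3 it was 0, without hiPSC-EV 2 or CMi-EV 1 it was 1, and without CPC-EV 2 it was 2. It was 3 without CMi-EV 2 or CMm-EV 1, 4 without CMi-EV 3 and 5 without hiPSC-EV 3, and DESeq2 called 0 features, as did edgeR without a filter.

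The first step, from hiPSC-EV to CPC-EV, asks what changes in vesicles as pluripotent cells commit to the cardiac lineage. Among the members, piR-33044 had the clearest values, with CPC-EV above hiPSC-EV in 3 of 3 libraries on both the piRNA table and the library total. Its log2 fold change was 1.20 ± 0.35 (SE) with TMM, with an adjusted p of 0.0868 by edgeR's quasi-likelihood test. This fold change was 0.28 without CPC-EV 1, without CPC-EV 2 or in a fit of all 12 libraries. That fit took the filter, the TMM factors and the dispersions from all 12. On the scale of 5 classes the log2 fold change was 1.51 ± 0.23 with an adjusted p of 2.71e-08 in the same edgeR test. Over the 16 alternatives to the TMM fit, this scale among them, the adjusted p ran from 9.46e-15 to 0.774. The log2 fold change of piR-33043 was 0.13 ± 0.35 with TMM and 0.47 ± 0.21 on the scale of 5 classes, past the threshold on neither, and it was below 0 in 10 of 15 alternatives, down to -0.79 without CPC-EV 1.

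With TMM, edgeR's quasi-likelihood test called 0 of 120 features (0%) at an adjusted p of 0.05 and a log2 fold change of 1, while 7 had an unadjusted p under 0.05 and DESeq2 called 1, piR-36770, which had met the rule through hiPSC-EV alone. On the scale of 5 classes it called 1 of 120 (0.833%), which was piR-33044. Of the members, 36 were tested, and 15 had 5 CPM or more in all 6 libraries. The median log2 fold change over all features tested was 0.20 with TMM and 0.69 on the scale of 5 classes, and leaving out single libraries with TMM moved it to between -1.59 (CPC-EV 2) and 1.12 (hiPSC-EV 2), so no direction of the table as a whole is read from it. Without hiPSC-EV 3 edgeR called piR-33044, with a log2 fold change of 1.43 and an adjusted p of 4.64e-10, without CPC-EV 1 it called 1 other feature, and without CPC-EV 3 it called 2.

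The second step, from CPC-EV to CMi-EV, compares progenitors with immature cardiomyocytes. With TMM and the filter on mean CPM the members that passed the test were lower in CMi-EV, and the most abundant of them was piR-33044. Its log2 fold change was -1.06 ± 0.20 (SE), with an adjusted p of 1.08e-05 by edgeR's quasi-likelihood test, and 3 of 3 libraries were lower than every CPC-EV library in CPM and RPM. The log2 fold change of piR-36173 was -1.56 ± 0.38 (adjusted p 0.00184 in the same edgeR test), also with no overlap of the groups in CPM and RPM, but it was -0.83 with library size alone and 9 of 16 alternatives lost the call. For piR-34736 it was -2.93 ± 0.44, with an adjusted p of 1.71e-07 in edgeR's test, from 2275 counts in CPC-EV to 181 in CMi-EV; over 16 alternatives it ran from -3.99 to -2.05 and the adjusted p up to 0.476, and 5 of them lost the call. The log2 fold change of piR-33043 was -0.57 ± 0.20, with an adjusted p of 0.0574 in edgeR's test, and did not pass, and it was 0.17 with library size alone.

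In this step edgeR called 6 of 105 features (5.71%) with TMM and 6 of 105 (5.71%) on the scale of 5 classes. All 6 were lower in CMi-EV, and 5 were members, out of 32 members tested. Of the 5, piR-33044 and piR-36173 reached 5 CPM in all 6 libraries, while piR-34736, piR-54907 and piR-31108 fell short of it in at least 1 CMi-EV library. For piR-54907 the counts were 66, 217 and 4 in CPC-EV against 0, 0 and 2 in CMi-EV. The counts of piR-31108 were 200 in CPC-EV, the group through which alone it met the rule, and 0 in CMi-EV. In this step piR-34736 and piR-54907 likewise met the rule through CPC-EV and not through CMi-EV. Nothing about the members is therefore read from the calls of piR-31108, piR-34736 and piR-54907. The sixth feature, piR-40352, had 0, 112 and 48 counts in CPC-EV, was no member and was at least 19.2-fold lower against a limit of 3 counts over the group. The median log2 fold change over all features tested was -1.46 on both scales, but leaving out single libraries with TMM moved it to between -4.94 (CMi-EV 2) and 0.26 (CPC-EV 2), so no direction of the table as a whole is read from it.

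This count too rested on few libraries. It was 0 without CPC-EV 2, 1 without CPC-EV 1 and 2 without CMi-EV 2, and DESeq2 called 2. EdgeR called 1 with library size alone or without a filter, and 0 for this step in the fit of all 12 libraries. With the study's filter, which admits a feature because 1 group is high, it called 4, of which piR-33415 and piR-33536 were higher in CMi-EV, piR-30597 and piR-31108 were lower, and only piR-31108 was among the 6. The adjusted p of edgeR's test for piR-33044 ran from 6.01e-25 to 0.377 over 16 alternatives, in 3 of which it was called, and its log2 fold change stayed negative in all of them, from -1.20 to -0.29.

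The third step, from CMi-EV to CMm-EV, compares cardiomyocytes before and after metabolic maturation. On the scale of 5 classes the dominant members passed the test as lower in CMm-EV, and with TMM on the piRNA table they did not pass it, except piR-33044 when CMm-EV 3 was left out. For piR-33044 the log2 fold change was -0.63 ± 0.36 (SE) with TMM and -2.26 ± 0.30 on the scale of 5 classes, where its adjusted p by edgeR's quasi-likelihood test was 6.59e-10. For piR-33043 the sign turned with the scale, from 0.13 ± 0.37 with TMM to -1.50 ± 0.28 on the scale of 5 classes, with an adjusted p of 1.61e-05 in edgeR's test, and with TMM it was also below 0 without CMi-EV 1, CMm-EV 2 or CMm-EV 3, down to -0.40. For piR-36173 the values were -1.69 ± 0.56 and -3.19 ± 0.87, the latter with an adjusted p of 0.0222 in edgeR's test. Over the alternatives the adjusted p ran from 1.41e-14 to 0.590 for piR-33044, from 1.61e-05 to 0.994 for piR-33043 and from 0.00981 to 0.577 for piR-36173.

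With TMM, edgeR's quasi-likelihood test called 0 of 79 features (0%), with 6 at an unadjusted p under 0.05 and 0 called by DESeq2. On the scale of 5 classes it called 3 of 79 (3.8%), and all 3 were members. Of the 32 members tested, 13 had 5 CPM in all 6 libraries. The median log2 fold change over all features tested was 0.43 with TMM and -1.16 on the scale of 5 classes, and leaving out single libraries with TMM moved it to between -0.69 (CMm-EV 3) and 1.00 (CMi-EV 2). Without CMm-EV 2 edgeR called 1 feature, and without CMm-EV 3 it called 2, piR-33044 and piR-34533. The comparisons of consecutive steps share the libraries of the group between them, and no difference between steps was tested.

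Other RNAs whose fragments can carry piRNA names are given beside the membership as shares of the counts on 5 classes. Y RNA features held 16.5% ± 0.961, 15.3% ± 1.22, 10.1% ± 2.98 and 3.64% ± 1.46 on average from hiPSC-EV to CMm-EV (SD, n = 3 each). The tRNA table held means of 8.80%, 7.95%, 7.22% and 5.12% in the same order. Of the Y RNA counts 44.2% were on RF00019, 18.9% on RNY1 and 12.1% on RNY4, and single features differed from the sum: RNY3 had 1321, 1235 and 1164 RPM in hiPSC-EV, 3690, 3228 and 4664 in CPC-EV, 2884, 4042 and 2023 in CMi-EV, and 1180, 813 and 713 in CMm-EV. The ratio of piRNA to Y RNA counts had means of 0.497, 0.931, 0.766 and 0.682. Across the 12 libraries, which share their group and depth, Pearson's r between the log2 shares of piRNA and Y RNA was 0.930, given as a description.

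The remaining classes were smaller. Mean shares of vault RNA were 0.253%, 0.0935%, 0.0523% and 0.0170% from hiPSC-EV to CMm-EV, and those of snoRNA were 0.206%, 0.220%, 0.222% and 0.1004%. Those of snRNA were 0.798%, 0.555%, 0.805% and 0.563%, and those of 7SL RNA were 0.0376%, 0.0821%, 0.0575% and 0.0380%. Those of rRNA were 0.00297%, 0.00432%, 0.0184% and 0.00372%, and those of 7SK RNA were 0.00144%, 0.00846%, 0.00883% and 0.0148%. Several means rested on single libraries, such as vault RNA at 0.0333%, 7SL RNA at 0.0790% and 7SK RNA at 0.0262% in CMm-EV 1. So did rRNA, at 0.0376% in CMi-EV 2, and snRNA, at 1.37% in hiPSC-EV 3 and 1.01% in CMm-EV 3. Of these classes, 7SL RNA alone had its highest mean in CPC-EV, as the piRNA table did.

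Among 387 features of the other tables with a mean of 50 RPM or more, the 5 with a course most like that of piR-33043 were all Y RNA features. Those named RNY4P are pseudogenes of RNY4, which encodes a small noncoding RNA of Ro ribonucleoproteins. Pearson's r on log2 values over 12 libraries was 0.998 for RNY4P14, 0.991 for RNY4P9, 0.980 for RNY4P24, 0.975 for the Y RNA family entry RF00019 and 0.970 for RNY4P27. The ratio of piR-33043 to RNY4P14 lay between 175 and 202 in every library, and with group means removed r was 0.989. Whether reads of the same fragments were divided between the piRNA and gencode tables cannot be told from the counts, and neither the ratio, this r nor the piRNA share can be read without that limit. In RPM, RNY4P14 had 222, 290 and 317 in hiPSC-EV, 400, 298 and 442 in CPC-EV, 206, 340 and 160 in CMi-EV, and 95.8, 73.8 and 79.6 in CMm-EV. The highest and lowest libraries were those of piR-33043, CPC-EV 3 and CMm-EV 2. RNY4 itself came only 41st, with r = 0.851, and piR-33043 was between 2.39 and 7.20 times as abundant.

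For piR-33044 the most similar feature was also a Y RNA feature, RNY4P24, with r = 0.979, and the next were the transcripts MBTPS2 and RPS7 and the miRNA miR-130b-5p, with r = 0.970, 0.968 and 0.951. With group means removed r was 0.832 for RNY4P24 and 0.909 for MBTPS2, but -0.01 for RPS7 and 0.282 for miR-130b-5p, which did not follow piR-33044 within groups. The r between piR-33043 and piR-33044 was 0.946. Other members followed piR-33043 less closely, with r = 0.875 for piR-36173, 0.858 for piR-36169, 0.856 for piR-31115 and 0.823 for piR-36170. For piR-42844 r was 0.356, and for piR-34804 it was -0.19. All these values rest on 12 points that share group, library and depth, and they were given no p.

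The transcripts of the piRNA pathway were almost absent from the same libraries. Of 25 genes listed for the piRNA pathway, those of PIWI proteins among them, 13 had a count. They had 112 counts over all 12 libraries, and no transcript passed the filter. The most abundant was TDRKH, a mitochondrial Tudor protein that holds PIWI proteins for trimming, with 37 counts. The PIWI gene PIWIL1 had 3 counts in 2 libraries, and PIWIL2, PIWIL3, PIWIL4 and the germ cell helicase DDX4 were at 0, as were TDRD1, TDRD5, TDRD9, TDRD10, TDRD12, GTSF1, FKBP6 and TDRD15. Of these genes at 0, only PIWIL3 had an entry in the gencode table. Here and below, a gene without an entry is given as 0. HENMT1, the methyltransferase of piRNA 3′ ends, had 19 counts, all in hiPSC-EV 2, and the trimming enzyme PNLDC1 had 27, of which 24 were in CMi-EV 3. Summed over the list, the means were 14.7 ± 22.7, 12.2 ± 1.97, 39.6 ± 68.6 and 13.8 ± 1.42 CPM of the gencode table from hiPSC-EV to CMm-EV, at a limit of 3 counts that stood between 1.57 and 22.9 CPM in single libraries. The CMi-EV mean rested on CMi-EV 3 alone, at 119 CPM with 0 in the other 2, and the hiPSC-EV mean on hiPSC-EV 2, at 40.9 CPM against 0 and 3.14. Vesicle RNA does not show what the cells expressed, and proteins were not measured.

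Marker transcripts were read beside the labels of the groups. Over the gencode table edgeR's F-test called 330 of 9040 transcripts (3.65%). The 10 pluripotency genes, most abundant LIN28A, summed to 793 ± 180, 498 ± 150, 78.0 ± 70.5 and 22.3 ± 29.2 CPM of the gencode table (SD, n = 3 each), and 5 of 9 genes tested passed. The fall to CPC-EV did not hold for LIN28A, with 225, 157 and 170 CPM in hiPSC-EV and 122, 329 and 552 in CPC-EV. Nor did it hold for LIN28B, with 0, 9.61 and 14.7 CPM in hiPSC-EV and 96.0, 0 and 64.1 in CPC-EV. SOX2, DNMT3B and DPPA4 overlapped between these groups. The CMm-EV mean of the list rested on CMm-EV 2, at 55.9 CPM, of which NANOG gave 49.7. The 11 cardiomyocyte genes summed to 63.0 ± 41.9, 1608 ± 381, 13909 ± 967 and 14839 ± 6706, and 7 of 11 passed. TTN held 21906 of their 30499 counts, with 17464, 10759 and 5461 CPM in the CMm-EV libraries. MYH6 had 2013, 2445 and 2152 CPM in CMi-EV and 915, 1959 and 1131 in CMm-EV. MYH7 had 198, 134 and 105 CPM in CMi-EV and 252, 1022 and 44.3 in CMm-EV. No course from CMi-EV to CMm-EV is therefore read from the sum. Of 8 genes of cardiac mesoderm and progenitors, 7 had a count, ISL1 was at 0 and 1 of 5 tested passed, HAND2, the most abundant. They summed to 49.1 ± 18.7, 292 ± 182, 173 ± 40.1 and 342 ± 191, and the highest mean rested on CMm-EV 1, with 556 CPM that were all HAND2. GATA4 was at 0 in all hiPSC-EV libraries, at 58.6, 63.2 and 34.1 CPM in CPC-EV, at 33.7, 120 and 196 in CMi-EV and at 0, 21.7 and 30.7 in CMm-EV, and HAND1 had 76.1, 128 and 0 CPM in CPC-EV and 1 count elsewhere. KDR had another course, with 65.1, 48.1 and 28.8 CPM in hiPSC-EV, 0, 39.6 and 0 in CPC-EV, none in CMi-EV and 194 in CMm-EV 3 alone of its group. The part of cell composition in the piRNA share was not tested.

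Markers of other cells were few. Of 8 germ cell genes, 4 of which are also in the piRNA pathway list, PIWIL1 had 3 counts and MAEL 1, and the rest, DDX4, DAZL, SYCP3, SYCP1, PIWIL2 and BOLL, were at 0. Of 8 endoderm and liver genes, 3 had a count, most abundant APOB with 205, and APOA1, APOA2, FGB, TTR and ALB were at 0. This list summed to 1.83 ± 1.23, 66.2 ± 78.4, 73.1 ± 127 and 11.4 ± 19.7 CPM of the gencode table from hiPSC-EV to CMm-EV, with 0, 45.7 and 153 in the CPC-EV libraries and all of the CMi-EV sum in CMi-EV 3, and its part in the piRNA share was not tested. The 6 fibroblast genes had 795 counts, most abundant COL1A1 with 512. Their means were 59.6 ± 53.0, 134 ± 101, 140 ± 123 and 176 ± 66.6 CPM of the gencode table. Single libraries weighed on them, with 120 CPM in hiPSC-EV 1, 250 in CPC-EV 3 and 0 in CMi-EV 3, so no course is read. Of 4 endothelial genes, VWF had 45 counts and PECAM1 was at 0, and all 5 globin genes of blood were at 0. Of the 2 endoderm and liver genes and 4 fibroblast genes that passed the filter, edgeR's F-test called 0, while APOB and LUM had an unadjusted p under 0.05, and DESeq2 was not run on this table. Germ cell, endothelial and blood genes did not pass the filter.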

How the data were processed

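Small RNA libraries of 12 EV preparations were processed by the authors with exceRpt on hg38. The deposited values are expected counts, and not all of the non-zero piRNA values were whole, so all were rounded. The RPM deposited by the authors, reads scaled to library totals, gave those totals. Members and lists were chosen with earlier results of these data known. Named features were the marker, the 10 members with the highest mean CPM, those nearest the threshold, called features with 5 CPM in all 6 libraries, and the 5 features most alike to piR-33043 on log2 of RPM plus 1. Features named beyond these were chosen after their values were seen. Tests used edgeR 4.0.16 in R 4.3.3 (quasi-likelihood, TMM, mean CPM of at least 5, false discovery rate 0.05, log2 fold change of at least 1 for pairs, two-sided), adjusted over all tested features of the table. Standard errors came from the fit, and fold changes against a group without counts have none. Lists covered the piRNA pathway, pluripotent cells, cardiomyocytes, cardiac mesoderm and progenitors, germ cells, endoderm and liver, fibroblasts, endothelium and blood. Alternatives were other scalings, filters and thresholds, DESeq2 1.42.0, the top feature left out, a term for the replicate number, dispersions from all 12 libraries, and each library left out once. Python 3.11.15, pandas 2.3.3, numpy 2.4.6, scipy 1.17.1 and matplotlib 3.10.9 gave the rest. No other measurement of the study was used.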

Additional observations from a re-analysis of the deposited data

How the results depend on the processing

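The piRNA share differed over the groups under all 15 alternatives (p between 0.000195 and 0.0011 in the exact permutation test), and the mean share of piR-33043 stayed between 67.5% and 69.3%. The number of members, 37, became 19 with the authors' RPM in place of CPM of the table and 38 to 68 without single libraries, 68 of them without hiPSC-EV 1, since fewer libraries then have to pass. The calls depended on the processing, and the cause was not tested. Over the 4 groups, 8 calls became 5 with median-of-ratios factors, 0 without a filter and 0 with DESeq2, and 0 to 9 without single libraries. From hiPSC-EV to CPC-EV, 0 calls became 1 with counts of 5 classes or of miRNA as scale, 2 with the study's filter and 1 with DESeq2, and 0 to 2 without single libraries. From CPC-EV to CMi-EV, 6 calls became 3 with median-of-ratios factors, 1 with library size alone and 1 without a filter. They became 4 with the study's filter (2 higher and 2 lower) and 2 with DESeq2. There was 1 call without the top feature and 0 in the fit of all 12 libraries. Without single libraries there were 0 to 6 (1 without CPC-EV 1, 0 without CPC-EV 2, 2 without CMi-EV 2). From CMi-EV to CMm-EV, 0 calls became 1 with library size alone and 3 with counts of 5 classes or of miRNA as scale, and 0 to 2 without single libraries. A replicate block left 0 calls in place of 8 over the 4 groups and 0 in place of 6 from CPC-EV to CMi-EV, where libraries share only a number: over 18 same-number pairs r ran from -0.14 to 0.15, 2 were over 0.1 and 7 were best matched with their own number, among them all 3 of CPC-EV with CMi-EV (0.05 to 0.15), a hint from the data and not from the design. The log2 fold change of piR-33043 from CMi-EV to CMm-EV turned from 0.13 to -1.50 with counts of 5 classes. It was -1.17 with miRNA counts as scale and -0.31 in the fit of all 12 libraries, and ran from -0.40 to 0.36 without single libraries. From hiPSC-EV to CPC-EV it turned from 0.13 to -0.24 with median-of-ratios factors and with DESeq2, and to -0.34 with library size alone. It was -0.52 without a filter, -0.38 with the study's filter and -0.77 in the fit of all 12 libraries (-0.79 to 0.54 without single libraries). From CPC-EV to CMi-EV it turned from -0.57 to 0.17 with library size alone (-0.61 to 0.00194 without single libraries). That of piR-36173 from hiPSC-EV to CPC-EV turned from 0.59 to -0.25 with library size alone and in the fit of all 12 libraries (-0.23 to 1.31 without single libraries). Of 204 values of 13 named fold changes, 116 kept direction and side of the threshold, 58 fell short of it, 8 passed it and 22 changed sign. The TMM factors, from 0.495 to 2.28, rest on features with few counts, since 0.748% to 2.44% of the counts lie outside the dominant pair.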
